A study of Rattus norvegicus with 14 samples.

Results

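Kupffer cells are the resident macrophages of the liver and sit in its sinusoids, the small vessels through which portal blood flows. They take up particles, immune complexes and bacterial products from that blood, and release complement proteins, lysozyme and cytokines. The genes described here mark these cells or macrophages in general, and 8 of them were chosen by name: Clec4f, Cd53, Fcgr2b, Cyba, Cd14, Lyz2, Csf1r and Cd163. Every probe set (a group of short DNA probes for 1 transcript) whose gene symbol in the platform annotation is one of these names was taken. This gave 8 probe sets for 7 of the 8 genes, out of 8799 probe sets and 4736 genes with a probe set of 1 symbol. Cd163, the haemoglobin scavenger receptor of macrophages, had no probe set under its symbol and is not analysed here.

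RNA from the left lateral lobe of rat liver was hybridised to 14 Affymetrix arrays. Per the labels, 4 arrays came from a magnesium-deficient diet (arrays 11 to 14), 5 from a magnesium-supplemented diet (arrays 1 to 5) and 5 from a standard diet (arrays 6 to 10). The labels give no strain, sex, age, magnesium content or feeding time, and name no genetic change or other treatment in any group. They also do not say that each array came from its own animal, so p-values measure the spread between these samples, which may be technical. In whole liver RNA, fewer cells of a type and less RNA per cell cannot be told apart.

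Signals are given in normalised units, after the distributions of the arrays had been made equal (quantile normalisation). A signal under 3.93 units was set to that floor, and probe sets with a mean above 14.3 units over the 14 arrays, 5133 in all, were tested with limma. Of the 8 marker probe sets, 7 passed this filter, for 6 genes, and Csf1r did not. A probe set counted as changed at a Benjamini-Hochberg adjusted p under 0.05 over all 5133 probe sets. Median signals before normalisation were lowest on deficient array 13, at 18.0 units, and highest on supplemented array 5, at 34.4 units. The 3'/5' ratio of a control transcript, a measure that grows as RNA is degraded or copied incompletely, differed between diets. On the log2 scale the Gapdh ratio was 1.84 ± 0.65 (SD, n = 4) in the deficient, 0.71 ± 0.49 (SD, n = 5) in the supplemented and 1.64 ± 0.61 (SD, n = 5) in the standard group, and the beta-actin ratio was 1.85 ± 0.82, 0.96 ± 0.20 and 1.52 ± 0.71 in the same groups. Supplemented array 5 stood apart from the others, with a mean rank correlation of 0.913 with the other arrays against 0.940 to 0.951 for the rest, and deficient array 13 and standard array 10 had the highest ratios for both transcripts. Albumin lay at the 99.99th percentile of signal over all probe sets, and all 18 hepatocyte markers on the array passed the filter.

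The promoters of 4 members are shown because they differ in the short motifs that macrophage genes often carry. Each line is the 250 bases before the transcript start that the promoter table uses, 5′ to 3′ on the gene's strand, from RefSeq on the rat build GRCr8. That start can lie inside the outermost annotated span of the gene: all 250 bases of the Cd14 window, 49 of the Lyz2 window and 29 of the Cd53 window fall within that span, against 0 for Clec4f. In Clec4f (chr4:117696408-117696657, minus strand) the capitals mark 2 head-to-tail copies of a repeat of 54 bases. In Cd53 (chr2:197087897-197088146, minus strand), Cd14 (chr18:28611159-28611408, minus strand) and Lyz2 (chr7:54798012-54798261, minus strand) they mark GAGGAA or its reverse complement TTCCTC, the core letters bound by the macrophage factor PU.1.
Clec4f: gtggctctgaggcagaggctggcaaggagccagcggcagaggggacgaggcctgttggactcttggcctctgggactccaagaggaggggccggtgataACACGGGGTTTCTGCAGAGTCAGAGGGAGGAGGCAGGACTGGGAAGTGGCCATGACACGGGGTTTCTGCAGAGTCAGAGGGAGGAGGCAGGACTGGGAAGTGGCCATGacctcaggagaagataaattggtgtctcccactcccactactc
Cd53: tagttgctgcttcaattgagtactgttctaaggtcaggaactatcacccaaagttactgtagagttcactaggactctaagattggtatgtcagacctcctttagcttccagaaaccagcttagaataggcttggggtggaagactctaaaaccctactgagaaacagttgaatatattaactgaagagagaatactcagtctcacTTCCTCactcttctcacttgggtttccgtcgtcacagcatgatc
Cd14: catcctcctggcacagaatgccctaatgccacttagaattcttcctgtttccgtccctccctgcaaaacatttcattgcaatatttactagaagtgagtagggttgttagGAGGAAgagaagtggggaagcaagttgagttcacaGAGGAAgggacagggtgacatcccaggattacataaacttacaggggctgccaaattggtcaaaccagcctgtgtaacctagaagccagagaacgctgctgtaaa
Lyz2: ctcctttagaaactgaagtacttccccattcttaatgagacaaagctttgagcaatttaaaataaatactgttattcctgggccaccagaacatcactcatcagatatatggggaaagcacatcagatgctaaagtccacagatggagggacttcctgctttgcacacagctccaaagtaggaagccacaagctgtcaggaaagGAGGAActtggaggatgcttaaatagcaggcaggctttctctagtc

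The promoter table held entries for 7 of the 8 genes, all but Fcgr2b. GAGGAA was searched on both strands, and 23.3% of all 33469 promoters in the table held it at least 1 time. Distances here are counted back from the table's transcript start. Cd53 had 1 match, beginning at 44 bases, and Lyz2 had 1, at 46 bases. Cd14 had 2 matches, at 140 and 105 bases, and Csf1r had 2, at 229 and 95 bases, where 3.39% of all promoters held 2 or more. The Csf1r window likewise lay mostly inside its gene span, with 227 of its 250 bases. Clec4f, Cyba and Cd163 had 0 matches in this window. The Cyba promoter instead held 2 copies of GGGCGG (the SP1 box, searched on both strands), at 62 and 44 bases, and 14.8% of all promoters held 2 or more. The copies of the Clec4f repeat begin at 151 and 97 bases, and an exact direct repeat at least as long was present in 82 of the 33469 promoters, or 0.245%. These matches describe the letters of the windows only.

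No marker changed between diets by the adjusted test. Between the deficient and the standard diet limma called 0 of the 7 marker probe sets, where 0% of the 5133 tested were called. Between the supplemented and the standard diet it called 0 of 7, again beside 0% of all. Between the deficient and the supplemented diet it called 0 of 7, beside 0.0195% of all, which is 1 probe set. The test for any diet difference also called 0 of 7 and 0.0195% of all. At an unadjusted p under 0.05 the count was 0 of 7 for deficient against standard (3.04% of all probe sets), 1 of 7 for supplemented against standard (8.88%) and 2 of 7 for deficient against supplemented (13%). The any-difference test gave 2 of 7 (9%).

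The directions of the differences, with no call behind them, were as follows. All 7 marker probe sets had a supplemented minus standard difference above 0, against 47.8% of all probe sets, and their median was 0.32 on the log2 scale against -0.016 over all. They are not 7 separate readings, since both Cd14 probe sets are among them. The markers were also chosen with earlier results of these data known, so these shares are a description only. For deficient minus supplemented, 6 of 7 lay below 0, against 47.5% of all, with a median of -0.37 against 0.023. These comparisons share the supplemented arrays, which also had the lowest mean of both RNA quality ratios. The r of the 7 probe sets with the beta-actin ratio ran from -0.872 for Fcgr2b to -0.046 for Lyz2. Of all probe sets with a varying signal, 41.8% had an r at or below that of Lyz2. With the Gapdh ratio Lyz2 had an r of 0.262 and the others lay below 0. With the beta-actin ratio as a covariate the median of the 7 was 0.20 for supplemented minus standard and -0.22 for deficient minus supplemented, and with the Gapdh ratio 0.28 and -0.24. For deficient minus supplemented 3 of 7 then lay above 0 with beta-actin and 2 with Gapdh, against 1 without a covariate. For supplemented minus standard 7 of 7 lay above 0 with beta-actin and 6 with Gapdh. For deficient minus standard, 4 of 7 lay above 0 (50.1% of all) and 3 below 0 (49.9% of all), with a median of 0.089 against 0.00059. The supplemented group had the highest mean for every marker probe set tested except that of Lyz2. When arrays were instead centred on their own median, the median of all probe sets moved to -0.11 for supplemented minus standard and 0.17 for deficient minus supplemented, so differences under that scaling are given relative to those medians.

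**Figure D1:**
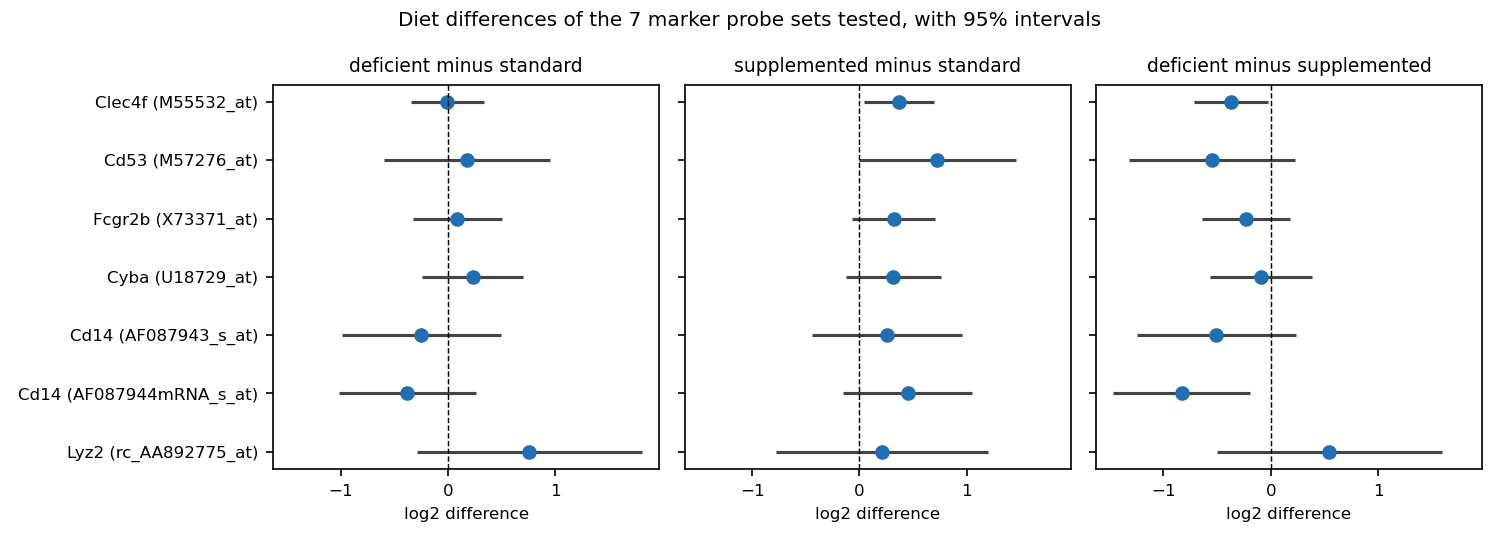
Log2 differences (points) with 95% intervals (lines) of the 7 marker probe sets tested, for deficient minus standard, supplemented minus standard and deficient minus supplemented. All 7 points lie right of 0 for supplemented minus standard, where the interval of Clec4f, 0.042 to 0.69, excludes 0.

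Clec4f encodes a C-type lectin that binds galactose-type sugars and, in rodents, is made by Kupffer cells. Its probe set (M55532_at, gene at chr4:117686686-117696407 on GRCr8) gave 295, 302, 230 and 278 units on deficient arrays 11 to 14. On supplemented arrays 1 to 5 it gave 362, 351, 381, 382 and 306 units, and on standard arrays 6 to 10 it gave 221, 322, 273, 327 and 249 units. Every supplemented array lay above every deficient array, the closest being supplemented array 5 and deficient array 12. Of the 5 supplemented arrays 4 lay above the highest standard array, and array 5 lay among the standard ones. The means were 276 ± 32.7 units (SD, n = 4) in the deficient, 356 ± 31.3 units (SD, n = 5) in the supplemented and 278 ± 46.2 units (SD, n = 5) in the standard group.

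For Clec4f the deficient minus supplemented difference was -0.37 ± 0.16 (SE) on the log2 scale, with a 95% interval of -0.72 to -0.027 (limma adjusted p = 0.369). Non-overlap in that direction was found in 1.87% of all probe sets, and an unadjusted p under 0.05 in that direction in 6.18%. The supplemented minus standard difference was 0.37 ± 0.15 (SE), or 1.29-fold (limma adjusted p = 0.516), and 4.15% of all probe sets were higher at an unadjusted p under 0.05. The deficient and standard levels did not differ beyond their spread: the deficient minus standard difference was -0.0043 ± 0.16 (SE), with an interval of -0.35 to 0.34, and turned to 0.092 with arrays centred on their median. That scaling put supplemented minus standard at 0.23, which relative to the median of all probe sets is 0.33, and deficient minus supplemented at -0.13, which relative to that median is -0.30. With the Gapdh ratio as a covariate these differences were 0.28 and -0.26, and with the beta-actin ratio 0.28 and -0.24.

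**Figure D2:**
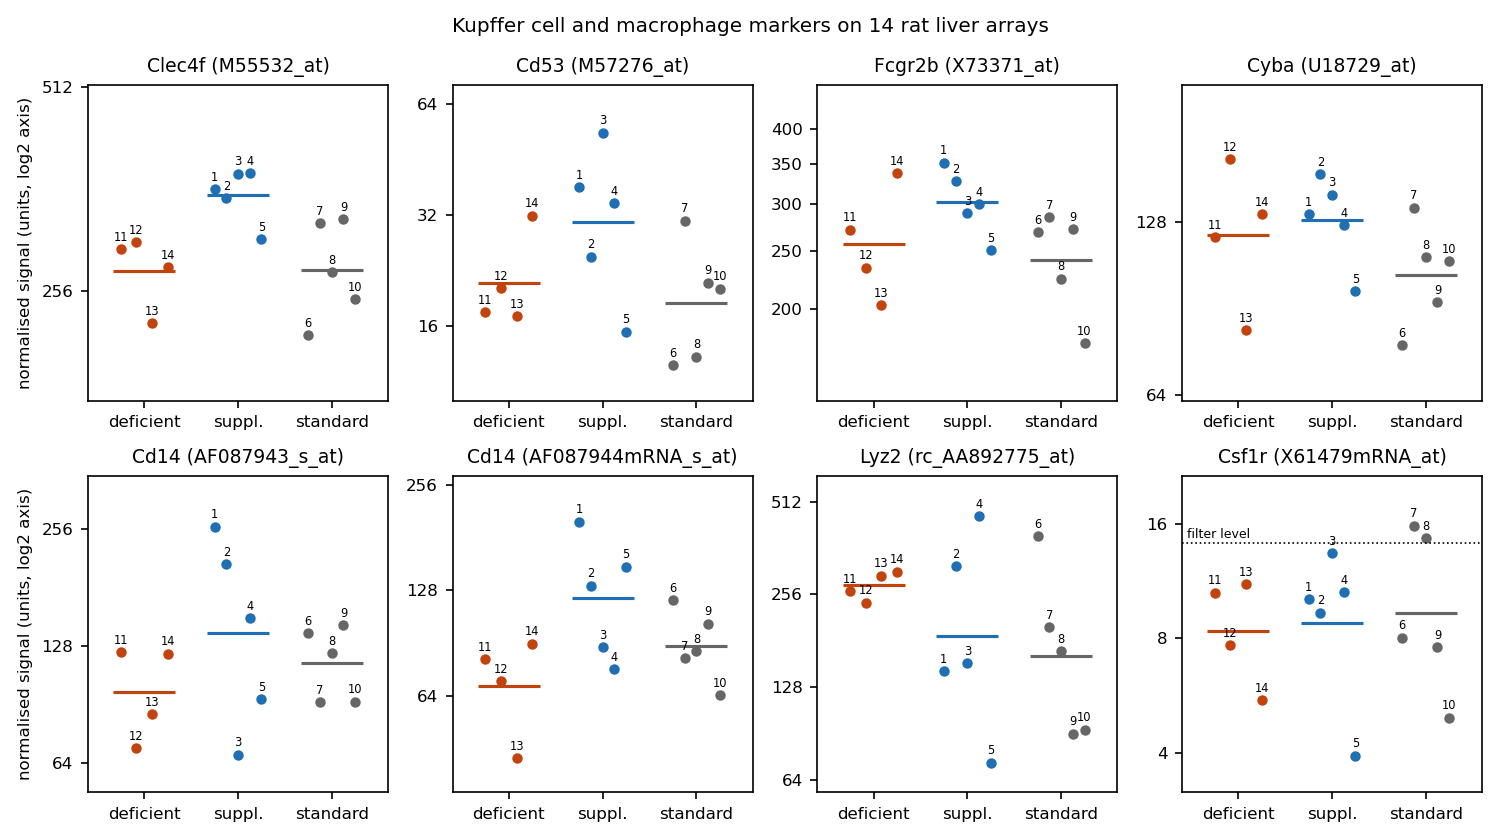
Normalised signal (units, log2 axis) of the 8 marker probe sets on each array, numbered, by diet (deficient, supplemented, standard), with bars at the mean of log2 signal. The supplemented arrays of Clec4f, from 306 to 382 units, lie above the deficient arrays, from 230 to 302 units, and the dotted line in the Csf1r panel is the filter level of 14.3 units.

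C-type lectins other than Clec4f include the asialoglycoprotein receptor of hepatocytes and the selectins. In the list of C-type lectins with lysozyme, 9 of 13 genes on the array passed the filter, Clec4f and Lyz2 among them, and 0 were called. For comparison with each gene list below, 52.8% of all 3073 genes tested were above 0 for deficient minus standard, 45.1% for supplemented minus standard and 56.3% for deficient minus supplemented, with medians of 0.013, -0.034 and 0.055. Of the 9 genes, 5 were above 0 for deficient minus standard (median 0.026), 6 for supplemented minus standard (median 0.30) and 3 for deficient minus supplemented (median -0.062). Clec11a, a secreted growth factor with a lectin fold, averaged 32.8 ± 11.8 units in the deficient, 35.4 ± 9.65 units in the supplemented and 12.7 ± 7.27 units in the standard group (SD). Its supplemented minus standard difference was 1.63 ± 0.37 (SE; limma adjusted p = 0.385) and its deficient minus standard difference 1.48 ± 0.39 (SE; limma adjusted p = 0.999). The standard arrays of Clec11a, from 6.34 to 21.5 units, averaged under the filter level of 14.3 units. It passed the filter only through the other diets, so both differences start from a signal that may be background. Asgr2, a chain of the asialoglycoprotein receptor, had a supplemented minus standard difference of 0.42 ± 0.17 (SE; limma adjusted p = 0.510).

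Cd53 encodes a tetraspanin, a protein with several passes through the membrane, found on leukocytes. Its probe set (M57276_at, gene at chr2:197040369-197087925) gave 17.5, 20.3, 17.1 and 31.9 units on deficient arrays 11 to 14. The supplemented arrays 1 to 5 gave 38.2, 24.7, 53.6, 34.5 and 15.5 units, and the standard arrays 6 to 10 gave 12.6, 30.9, 13.3, 21.0 and 20.2 units. Supplemented arrays 1, 3 and 4 were the highest of all 14, whereas supplemented array 5 was among the lowest, and the groups overlapped. Standard arrays 6 and 8 lay under the filter level of 14.3 units, so this is a dim probe set.

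The means of Cd53 were 21.7 ± 6.97 units (SD, n = 4) in the deficient, 33.3 ± 14.4 units (SD, n = 5) in the supplemented and 19.6 ± 7.41 units (SD, n = 5) in the standard group. The supplemented minus standard difference was 0.73 ± 0.34 (SE), or 1.65-fold, with an interval of -0.0059 to 1.46 (limma adjusted p = 0.547). It was 0.97 without supplemented array 5 and 0.52 without supplemented array 3. The deficient minus supplemented difference was -0.55 ± 0.36 (SE; limma adjusted p = 0.520). This value ran from -0.79 without supplemented array 5 to -0.35 without supplemented array 3, and was -0.26 with the beta-actin ratio as a covariate. The deficient minus standard difference was 0.18 ± 0.36 (SE), and it turned to -0.025 without deficient array 14.

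Among tetraspanins 8 of 9 genes on the array passed the filter and 0 were called. Of these 8, 5 were above 0 for deficient minus standard, 2 for supplemented minus standard and 5 for deficient minus supplemented, with medians of 0.099, -0.053 and 0.054. The 2 above 0 for supplemented minus standard were Cd53 and Cd63, a tetraspanin of lysosomes, at 0.92 ± 0.41 (SE; limma adjusted p = 0.534).

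Fcgr2b encodes the inhibitory receptor for the Fc part of IgG, which in liver is present on sinusoidal endothelial cells as well as on macrophages. Its probe set (X73371_at, gene at chr13:85725897-85740517) gave 271, 234, 203 and 337 units on deficient arrays 11 to 14. Supplemented arrays 1 to 5 gave 351, 327, 289, 299 and 251 units, and standard arrays 6 to 10 gave 269, 285, 225, 272 and 176 units. The groups overlapped: deficient array 14 came next after supplemented array 1, and standard array 10 was the lowest of all.

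Fcgr2b averaged 262 ± 57.4 units (SD, n = 4) in the deficient, 303 ± 38.2 units (SD, n = 5) in the supplemented and 245 ± 44.96 units (SD, n = 5) in the standard group. The supplemented minus standard difference was 0.32 ± 0.18 (SE; limma adjusted p = 0.623), and 0.20 without standard array 10. The signal was lower on arrays with a higher beta-actin 3'/5' ratio. Over the 14 arrays Pearson's r was -0.872 and Spearman's rho was -0.824 (permutation p adjusted over 14 relations, 0.00154 and 0.00511). Arrays 10 and 13 had the ratios most distant from the median, and leaving them out gave an r of -0.732, while within diets r was -0.899. Of all probe sets with a varying signal, 0.701% had an r as low or lower. With the beta-actin ratio as a covariate the supplemented minus standard difference was 0.11, and with the Gapdh ratio it was 0.089. The deficient minus supplemented difference of -0.23 ± 0.19 (SE; limma adjusted p = 0.612) turned to 0.11 with the beta-actin ratio and 0.051 with the Gapdh ratio as a covariate, and to 0.0049 with arrays centred on their median, which relative to the median of all probe sets is -0.16. For deficient minus standard it was 0.089 ± 0.19 (SE), and -0.042 without deficient array 14.

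**Figure D3:**
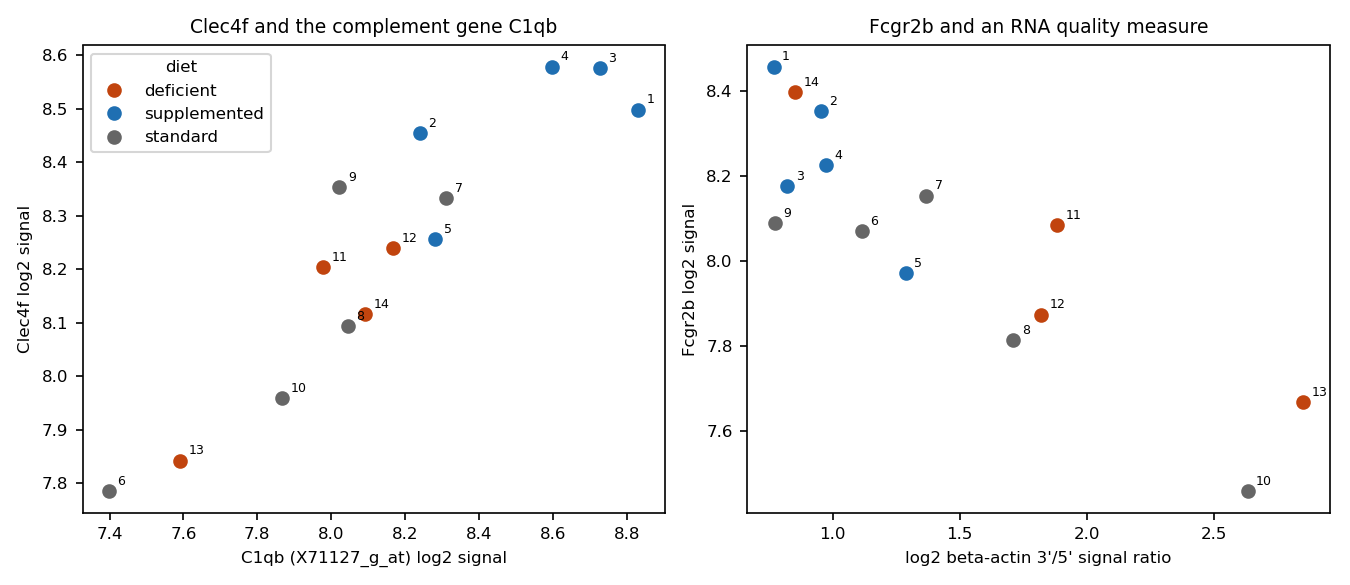
Left, Clec4f log2 signal against the log2 signal of the C1qb probe set X71127_g_at. Right, Fcgr2b log2 signal against the log2 beta-actin 3'/5' ratio. Each point is an array, numbered and coloured by diet, and the correlations over 14 arrays were 0.921 on the left and -0.872 on the right.

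The list of Fc receptors and their signalling had 9 genes on the array, of which 6 passed the filter and 0 were called. Of the 6, 5 were above 0 for deficient minus standard, 3 for supplemented minus standard and 4 for deficient minus supplemented, with medians of 0.064, 0.032 and 0.19. Lyn, a kinase that phosphorylates Fc receptor tails, averaged 27.4 ± 15.7 units in the deficient, 56.8 ± 5.57 units in the supplemented and 30.6 ± 15.96 units in the standard group (SD). Its supplemented minus standard difference was 1.19 ± 0.48 (SE; limma adjusted p = 0.510) and its deficient minus supplemented difference -1.22 ± 0.51 (SE; limma adjusted p = 0.355). Fcgrt, the neonatal Fc receptor that recycles IgG and albumin, had a deficient minus supplemented difference of 0.35 ± 0.16 (SE; limma adjusted p = 0.373).

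Cyba encodes p22phox, the membrane subunit that stabilises the catalytic subunit of the phagocyte NADPH oxidase. Its probe set (U18729_at, gene at chr19:67396143-67404214) gave 121, 165, 82.9 and 132 units on deficient arrays 11 to 14. Supplemented arrays 1 to 5 gave 132, 155, 143, 127 and 97.0 units, and standard arrays 6 to 10 gave 78.0, 136, 111, 92.7 and 109 units. The highest array was deficient array 12 and the lowest standard array 6, with full overlap of the groups.

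Cyba averaged 125 ± 33.9 units (SD, n = 4) in the deficient, 131 ± 21.8 units (SD, n = 5) in the supplemented and 105 ± 21.7 units (SD, n = 5) in the standard group. None of its 3 differences exceeded the spread. Supplemented minus standard was 0.32 ± 0.21 (SE; limma adjusted p = 0.664) and deficient minus standard 0.23 ± 0.22 (SE; limma adjusted p = 0.999). The deficient minus standard value was 0.41 without deficient array 13 and 0.083 without deficient array 12. Deficient minus supplemented was -0.088 ± 0.22 (SE; limma adjusted p = 0.885), and turned to 0.095 without deficient array 13, to 0.022 with the beta-actin covariate and to 0.065 with arrays centred on their median, or -0.10 relative to the median of all probe sets. Of the NADPH oxidase list, 3 genes were on the array and 2 passed the filter, Cyba included. Both were above 0 for supplemented minus standard and below 0 for deficient minus supplemented, 1 of 2 was above 0 for deficient minus standard, and 0 were called.

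Cd14 encodes the co-receptor that hands bacterial lipopolysaccharide to Toll-like receptor 4 on macrophages. The gene (chr18:28609558-28611409) has 2 probe sets. The first, AF087943_s_at, gave 123, 69.8, 85.5 and 122 units on deficient arrays 11 to 14. It gave 260.3, 208, 67.1, 151 and 93.4 units on supplemented arrays 1 to 5, and 138, 91.7, 123, 145 and 92.0 units on standard arrays 6 to 10. Supplemented arrays 1 and 2 were the highest of all and supplemented array 3 the lowest, so the supplemented group spanned the others.

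The second Cd14 probe set, AF087944mRNA_s_at, gave 81.5, 70.6, 42.4 and 90.1 units on deficient arrays 11 to 14. On supplemented arrays 1 to 5 it gave 201, 132, 88.1, 76.4 and 149.6 units, and on standard arrays 6 to 10 it gave 119.9, 82.1, 86.0, 103 and 64.3 units. Supplemented arrays 1, 2 and 5 were the highest, deficient array 13 was the lowest, and all 3 groups overlapped. Supplemented array 5 was among the lower arrays in the first probe set and among the highest in the second. The probe sets correlated with r = 0.644 over the 14 arrays (rho = 0.552; permutation p adjusted over 21 pairs, 0.0570 and 0.134). Without arrays 1 and 3 this r was 0.522.

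By group, the first Cd14 probe set averaged 100.3 ± 26.9 units (SD, n = 4) in the deficient, 156 ± 79.7 units (SD, n = 5) in the supplemented and 118 ± 25.1 units (SD, n = 5) in the standard group. The second averaged 71.2 ± 20.8, 129 ± 50.1 and 91.0 ± 21.1 units in the same groups. Both thus had their lowest mean in the deficient and their highest in the supplemented group. For deficient minus supplemented the first was at -0.51 ± 0.35 (SE; limma adjusted p = 0.532), or -0.28 without supplemented array 1, and the second at -0.83 ± 0.30 (SE), with an interval of -1.47 to -0.19 (limma adjusted p = 0.307). That second value was -0.60 without deficient array 13, and -0.52 without the 3 arrays 5, 10 and 13. For deficient minus standard the first was at -0.25 ± 0.35 (SE), or -0.088 without deficient array 12, and the second at -0.38 ± 0.30 (SE), or -0.15 without deficient array 13. Both were above 0 for supplemented minus standard, at 0.26 ± 0.33 and 0.45 ± 0.28 (SE; limma adjusted p = 0.830 and 0.653). The supplemented minus standard value of the first was 0.034 without supplemented array 1 and 0.52 without supplemented array 3.

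The second Cd14 probe set also moved with the RNA quality ratios. Its r with the Gapdh ratio was -0.774 and rho -0.820 (permutation p adjusted over 14 relations, 0.0113 and 0.00511), with -0.609 without arrays 10 and 13 and -0.642 within diets. With the Gapdh ratio as a covariate its deficient minus supplemented difference was -0.24 and its supplemented minus standard difference turned to -0.034, and with the beta-actin ratio they were -0.42 and 0.20. The first probe set had an r of -0.254 with the Gapdh and -0.481 with the beta-actin ratio (permutation p adjusted over 14 relations, 0.446 and 0.143). With the beta-actin ratio as a covariate its deficient minus supplemented difference was -0.22 and its supplemented minus standard difference 0.079, and with the Gapdh ratio they were -0.50 and 0.25.

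In the list of CD14 and Toll-like receptor signalling, 11 of 19 genes on the array passed the filter, and 0 were called. Tlr4, the receptor itself, and the cytokines Tnf and Il6 did not pass it. Of the 11, 9 were above 0 for deficient minus standard, 5 for supplemented minus standard and 9 for deficient minus supplemented, with medians of 0.13, -0.027 and 0.19. Nfkbia, the inhibitor that holds NF-kappaB in the cytoplasm, averaged 207 ± 39.2 units in the deficient, 127 ± 66.5 units in the supplemented and 199 ± 74.7 units in the standard group (SD). Its deficient minus supplemented difference was 0.88 ± 0.39 (SE; limma adjusted p = 0.373), opposite in sign to that of Cd14.

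Lyz2 encodes the lysozyme of macrophages and neutrophils, which cuts bacterial cell walls. Its probe set (rc_AA892775_at, gene at chr7:54792715-54798060) gave 263, 241, 295 and 304 units on deficient arrays 11 to 14. Supplemented arrays 1 to 5 gave 144, 316, 153, 459.8 and 72.8 units, and standard arrays 6 to 10 gave 397, 200.2, 168, 90.5 and 93.1 units. The deficient arrays lay close together inside the range of both other groups, where the highest array was 6.31 times the lowest over all 14. The log2 SD was 0.15 in the deficient (n = 4), 1.04 in the supplemented (n = 5) and 0.88 in the standard group (n = 5), and this difference in spread was not tested.

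Lyz2 averaged 275 ± 29.1 units in the deficient, 229 ± 157 units in the supplemented and 189.6 ± 125 units in the standard group (SD). It was the only marker tested with its highest mean in the deficient group. The deficient minus standard difference was 0.76 ± 0.49 (SE), with an interval of -0.29 to 1.81 (limma adjusted p = 0.999), and the deficient minus supplemented difference was 0.55 ± 0.49 (SE; limma adjusted p = 0.648). With 1 array left out the deficient minus supplemented value ran from 0.20 (without array 5) to 0.87 (without array 4). Supplemented minus standard, at 0.21 ± 0.46 (SE), ran from -0.11 without array 4 to 0.55 without array 5. The r of Lyz2 was -0.046 with the beta-actin ratio and 0.262 with the Gapdh ratio, and without arrays 10 and 13 they were 0.078 and 0.594. With the Gapdh ratio as a covariate deficient minus supplemented was 0.14 and supplemented minus standard 0.54. With the beta-actin ratio they were 0.80 and 0.054.

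Csf1r encodes the receptor for CSF1 and IL-34, on which macrophages depend for survival. Its probe set (X61479mRNA_at, gene at chr18:56834152-56860804) lay under the filter and was not tested. It gave 10.5, 7.68, 11.1 and 5.49 units on deficient arrays 11 to 14, then 10.1, 9.34, 13.4, 10.6 and 3.93 units (the floor) on supplemented arrays 1 to 5. On standard arrays 6 to 10 it gave 8.04, 15.8, 14.7, 7.57 and 4.95 units. Standard arrays 7 and 8 alone exceeded the filter level, and the groups overlapped throughout, at means of 8.70 ± 2.61, 9.47 ± 3.45 and 10.2 ± 4.77 units in the deficient, supplemented and standard groups (SD). Of the CSF1 receptor axis list, 6 of 10 genes on the array passed the filter, and 0 were called. Of the 6, 3 were above 0 for deficient minus standard, 1 for supplemented minus standard and 3 for deficient minus supplemented, with medians of -0.038, -0.088 and 0.048.

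For the haemoglobin scavenging pathway around Cd163, 6 of 7 genes on the array passed the filter and 0 were called. Of these 6, 2 were above 0 for deficient minus standard, 3 for supplemented minus standard and 2 for deficient minus supplemented, with medians of -0.082, -0.0028 and -0.032.

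The markers were then compared with each other over the arrays. Of the 21 pairs of marker probe sets 19 had a Pearson's r above 0, with a median of 0.311, and 16 did within diets. The highest was Clec4f with Cd53, at r = 0.748 and rho = 0.793 (permutation p adjusted over 21 pairs, 0.0460 and 0.0200). Without arrays 6 and 13 this r was 0.682, and within diets 0.637. Clec4f and Cyba reached r = 0.665 and rho = 0.572 (permutation p adjusted over 21 pairs, 0.0570 and 0.124). That r fell to 0.337 without arrays 6 and 13, the most distant in Clec4f, and was 0.692 within diets with all arrays kept. Cd53 and Cyba reached r = 0.629 and rho = 0.667 (permutation p adjusted over 21 pairs, 0.0570 and 0.0587), and Clec4f and Fcgr2b r = 0.628 and rho = 0.692 (permutation p adjusted over 21 pairs, 0.0570 and 0.0548). For Lyz2 the r with the other markers ran from -0.257 to 0.311, but Cyba with Lyz2, at 0.146, was 0.671 without arrays 6 and 13. Clec4f also moved with the RNA quality ratios, at r = -0.648 and rho = -0.657 with beta-actin (permutation p adjusted over 14 relations, 0.0322 and 0.0298), and -0.396 without arrays 10 and 13. Within diets its r was weaker, at -0.476 with beta-actin and -0.285 with Gapdh. The part of RNA quality in the pair correlations was not tested.

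**Figure D4:**
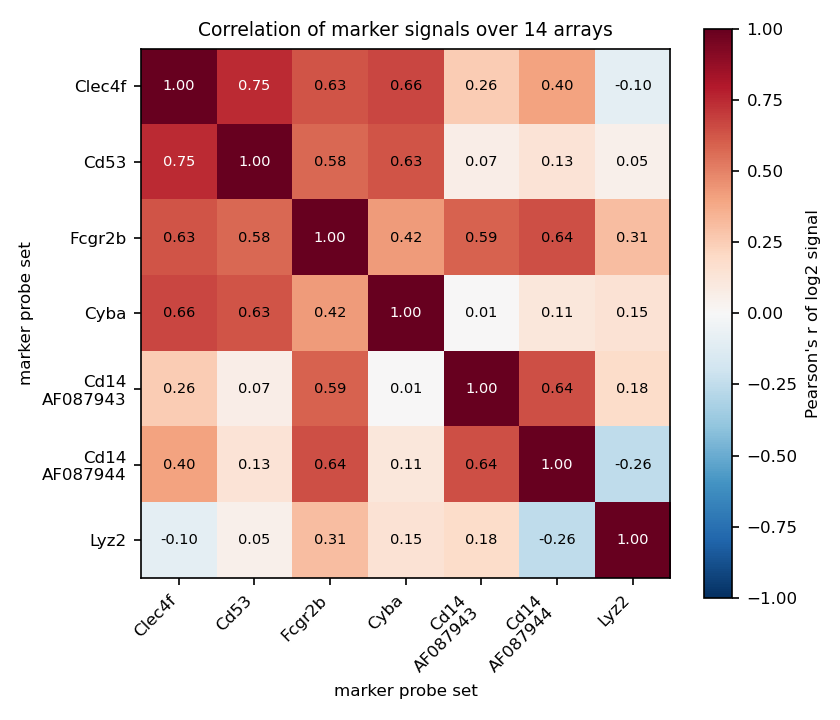
Pearson's r of log2 signal over the 14 arrays for each pair of the 7 marker probe sets tested (colour scale). Clec4f and Cd53 have the highest value, 0.748, and the row of Lyz2 stays between -0.257 and 0.311.

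For each marker the 3 genes with the most similar signal over the 14 arrays were taken from 4222 probe sets with 1 symbol, as a description. For Clec4f these were C1qb, the B chain of complement C1q, which macrophages make (r = 0.921), Yif1a, a protein of transport between endoplasmic reticulum and Golgi (0.808), and Rab11a, a GTPase of recycling endosomes (0.801). For Cd53 they were Cstb, an inhibitor of cathepsins (0.876), Yif1a (0.835) and C1qb (0.800). That C1qb value is of probe set X71127_g_at, whereas X71127_at had an r of 0.294 with Cd53, and C1qc, another C1q chain, 0.365. For Cyba they were Cfp, the complement protein properdin (0.746), Anapc5 (0.739) and Casp2 (0.715). Fcgr2b was most like Cyp2c6v1, a cytochrome P450 (0.927), Jak1, a cytokine receptor kinase (0.905), and Errfi1, a feedback inhibitor of the EGF receptor (0.905). These 3 had an r of -0.948, -0.802 and -0.834 with the beta-actin ratio that Fcgr2b also followed. The first Cd14 probe set was most like Tpm3 (0.744), Man2a1 (0.740) and Cyp2j3 (0.732), and the second most like Masp1, a protease of the lectin pathway of complement (0.873), Ptpra (0.852) and Cox5b (0.809). Lyz2 was most like Lcp2, an adaptor of leukocyte signalling (0.806), Stk38 (0.727) and Tnfrsf21 (0.721).

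C1qb was picked for its likeness to Clec4f on these same arrays, so a shared diet pattern comes with that choice, and its values are given as a description. Its probe set X71127_g_at gave 252, 287, 193 and 273 units on deficient arrays 11 to 14. It gave 455, 302, 424, 387 and 311 units on supplemented arrays 1 to 5, and 169, 318, 264, 260.0 and 234 units on standard arrays 6 to 10. Every supplemented array lay above every deficient array, as in 1.87% of all probe sets. Standard array 6 and deficient array 13 were the lowest. The supplemented minus standard difference was 0.61 ± 0.19 (SE; limma adjusted p = 0.474) and the deficient minus supplemented difference -0.58 ± 0.21 (SE; limma adjusted p = 0.306). Without arrays 6 and 13 the r with Clec4f was 0.845, and within diets it was 0.832. The other C1qb probe set, X71127_at, was less like it, with an r of 0.711 with Clec4f and a supplemented minus standard difference of 0.16 ± 0.16 (SE). C1qc, the C chain of C1q, averaged 113.5 ± 27.4 units in the deficient, 168 ± 34.1 units in the supplemented and 138 ± 19.2 units in the standard group (SD). Its deficient minus supplemented difference was -0.57 ± 0.21 (SE; limma adjusted p = 0.308). The r with the Gapdh ratio was -0.618 for X71127_g_at of C1qb and -0.882 for C1qc, and the part of RNA quality in these differences was not tested.

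Among other macrophage and myeloid genes, 20 of 23 on the array passed the filter and 0 were called. Some of them, such as Arg1 and the lysosomal proteases, are also expressed by hepatocytes, and Itgam, the CD11b chain, did not pass the filter. For supplemented minus standard 13 of the 20 were above 0, with a median of 0.19, the highest being Ctsl, a lysosomal protease, at 0.52 ± 0.16 (SE; limma adjusted p = 0.474). Lgals3, a galectin of macrophages, was at 0.45 ± 0.22 and Ctss, a protease of antigen processing, at 0.31 ± 0.21, whereas Lgals1 was at -0.56 ± 0.34, Lamp1 at -0.51 ± 0.24 and Aif1 at -0.40 ± 0.38 (SE). For deficient minus supplemented 8 of 20 were above 0 (median -0.24), and for deficient minus standard 10 of 20 (median -0.0098). The summed level of this list was 9665 to 11049 units on the deficient, 9779 to 12469 units on the supplemented and 9587 to 11355 units on the standard arrays. Most of this sum came from Arg1, Lipa, Lamp1, Ctsl and Ctsb, with log2 means from 10.2 to 11.0. Arg1 is also in the hepatocyte list below, so the sum is not a measure of macrophages.

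Markers of other cell types were read in the same way, and 0 were called in each list. Of 11 endothelial genes tested, Fcgr2b among them, 6 were above 0 for deficient minus standard, 7 for supplemented minus standard and 4 for deficient minus supplemented, with medians of 0.0031, 0.045 and -0.062. The summed level of all 13 endothelial genes on the array ran from 896 to 1240.0 units on the deficient, 1027 to 1247 units on the supplemented and 942 to 1124 units on the standard arrays. Of 18 hepatocyte genes 7, 7 and 9 were above 0 in the 3 comparisons (medians -0.0093, -0.023 and 0.00035), and their sum overlapped between diets, at 77428 to 81470 units on the deficient, 75185 to 81955 units on the supplemented and 76837 to 81419 units on the standard arrays. Apob, the protein of very low density lipoprotein, had a deficient minus supplemented difference of 0.35 ± 0.13 (SE; limma adjusted p = 0.326), and Fgb, a fibrinogen chain, a supplemented minus standard difference of 0.35 ± 0.14 (SE; limma adjusted p = 0.501). Of 11 T, B and NK cell genes tested 7, 4 and 4 were above 0 (medians 0.091, -0.23 and -0.057). All 20 such genes on the array, with Prf1 at the floor on every array, had sums of 444.2 to 575 units on the deficient, 430.2 to 518 units on the supplemented and 455 to 527 units on the standard arrays.

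Neutrophils also make lysozyme, so granulocyte markers were set beside Lyz2. Of 12 granulocyte and mast cell genes on the array 5 passed the filter, and 1, 2 and 0 of these were above 0 for deficient minus standard, supplemented minus standard and deficient minus supplemented, with medians of -0.25, -0.13 and -0.19. Among those that passed, Tpsb2, Cma1 and Tpsab1 are mast cell genes, and only Cxcr1 and S100a9 are neutrophil genes. The medians are therefore not a reading of neutrophils. S100a8, Cxcr2 and Mmp8 did not pass the filter. The summed level of all 12 was 189 to 291 units on the deficient, 223 to 297 units on the supplemented and 223 to 284 units on the standard arrays. S100a9, a calcium-binding protein of neutrophils, had a supplemented minus standard difference of 0.93 ± 0.31 (SE; limma adjusted p = 0.492). It averaged 20.6 ± 8.00 units in the deficient, 24.3 ± 6.32 units in the supplemented and 13.0 ± 4.22 units in the standard group (SD). Its standard mean lay under the filter level of 14.3 units, so it passed the filter only through the other diets. S100a9 was the 1 gene above 0 for deficient minus standard, the direction of Lyz2, but a dim one. Cxcr1, a chemokine receptor of neutrophils, had a deficient minus standard difference of -0.67 ± 0.29 (SE; limma adjusted p = 0.999). The sums of this list, which also count mast cell genes, began lower on the deficient arrays, where Lyz2 had its highest mean. They overlapped with those of the other diets, and the part of granulocytes in the Lyz2 values was not tested.

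**Figure D5:**
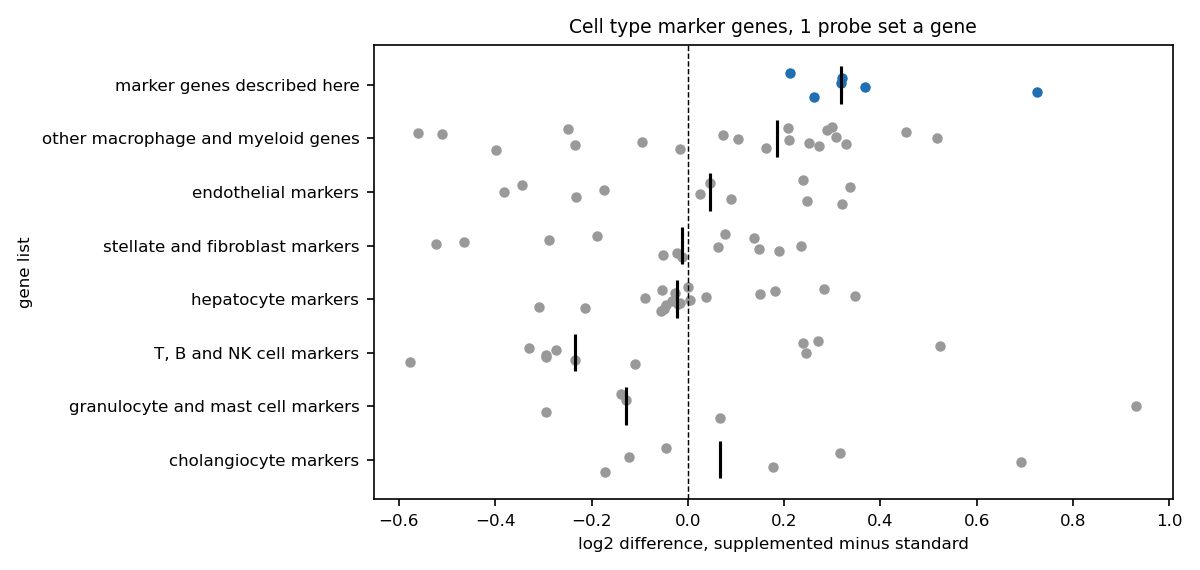
Log2 difference, supplemented minus standard, of each gene tested in 8 gene lists (points, 1 probe set a gene), with a vertical bar at the median of each list. The 6 marker genes described here (top row) lie right of 0 with a median of 0.32, and the medians of the other lists run from -0.23 to 0.19.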

How the data were processed

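RNA of rat liver was measured on 14 arrays. The labels give an input of roughly 5 µg total RNA a target. The authors deposited 1 linear intensity value for each probe set and array. The software behind these signals is not given in the sources used here, nor is any detection call. With the highest and lowest 2% trimmed, all arrays averaged about 150.3 units, so a common scaling was already in the deposited intensity values. Array medians still differed by 1.91 times, and the log2 values were quantile normalised over the probe sets other than the 59 controls. Signals were floored at the pooled 20th percentile, and probe sets with a mean above the pooled 40th percentile were kept. Limma 3.58.1 in R 4.3.3 (lmFit, eBayes with a trend) was fitted to the 3 diets in 1 model, two-sided, with Benjamini-Hochberg adjustment over the 5133 probe sets, and was first tested on simulated data. Since no detection calls were at hand, dim signals may be background, and precision is limited by how many arrays there were.

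The diet and array number came from the titles. All data columns were used (0 left out). Gene symbols came from the platform annotation: 7006 probe sets had 1 symbol, 308 several and 1426 none, and none was named from several symbols. Coordinates and promoters are RefSeq's on GRCr8. The members and gene lists were chosen with earlier results of these data known. Named genes were every member, at most the 2 genes with the smallest p of each other list and comparison with an unadjusted p under 0.05, and the 3 genes most correlated with each member. Examples outside this rule (Lgals3, Ctss, Lgals1, Lamp1 and Aif1 of the macrophage list) were chosen after their values were seen, as were X71127_at of C1qb, Tlr4, Tnf, Il6 and Itgam. In a list the probe set with the highest mean stood for a gene. Correlations over arrays had 100000 resamples (Python 3.11.15, scipy 1.17.1).

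Alternatives covered the scaling, floor, filter, variance trend, samples in the fit, array weights, RNA quality covariates and arrays left out.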

Additional observations from a re-analysis of the deposited data

How the results depend on the processing

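No marker was called under any of the 24 alternatives, 14 of which left out 1 array, and the lowest adjusted p of a marker was 0.942 for deficient against standard, 0.376 for supplemented against standard and 0.146 for deficient against supplemented, each with limma's array weights. Over all probe sets, deficient against standard had 0 calls and gave 1 with no filter on dim probe sets. Supplemented against standard had 0 calls and gave 1 without the variance trend and 1 with array weights. Deficient against supplemented had 1 call and gave 0 on the values as deposited, with only the diets compared, with the Gapdh or the beta-actin ratio as a covariate and without arrays 5, 10 and 13, and 2 with no filter. Any diet difference had 1 call and gave 0 on the values as deposited, with either ratio as a covariate and without those 3 arrays, and 2 with no filter. With 1 array left out the counts ran from 0 to 0 for deficient against standard, 0 to 2 for supplemented against standard, 0 to 4 for deficient against supplemented and 0 to 3 for any difference. Of the marker differences, 12 of 213 values under other settings and 8 of 294 with 1 array left out changed sign, and the cause was not tested. Many of these values could not change sign, so the counts do not measure stability. Changing the floor, filter, variance trend or diets in the fit left the differences as they were. Leaving out an array of the diet not compared did the same. Clec4f deficient minus standard, at -0.0043, was 0.022 as deposited, 0.092 with arrays centred on their median, 0.017 with array weights, 0.015 with the Gapdh ratio, 0.045 with the beta-actin ratio and 0.045 without the 3 arrays, and ran from -0.084 to 0.082 with 1 array left out. Deficient minus supplemented turned to 0.0049 (median centred), 0.051 (Gapdh) and 0.11 (beta-actin) for Fcgr2b, and to 0.065 (median centred) and 0.022 (beta-actin) for Cyba, whose range with 1 array left out was -0.24 to 0.095. Supplemented minus standard turned to -0.034 for the second Cd14 probe set (Gapdh). With 1 array left out, deficient minus standard ran from -0.025 to 0.36 for Cd53 and from -0.042 to 0.20 for Fcgr2b, and supplemented minus standard from -0.11 to 0.55 for Lyz2. No paired analysis was possible because array numbers run on from diet to diet and none is shared.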

Other observations

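Markers of stellate cells, bile ducts, red cells and neighbouring tissues also had 0 calls by limma in each comparison. Of 13 stellate and fibroblast genes tested, 7 were above 0 for deficient minus standard, 6 for supplemented minus standard and 9 for deficient minus supplemented, with medians of 0.044, -0.012 and 0.11. Sparc, a collagen-binding matrix protein, had a deficient minus supplemented difference of 0.41 ± 0.19 (SE; limma adjusted p = 0.378), and Reln, a secreted protein of stellate cells, a supplemented minus standard difference of -0.47 ± 0.19 (SE; limma adjusted p = 0.509). Of 6 cholangiocyte genes 5, 3 and 4 were above 0 in the same comparisons (medians 0.022, 0.066 and 0.11), with Ggt1 at the floor on every array. Krt19 and Spp1 of that list did not pass the filter, and its brightest genes were Krt18 and Krt8, at log2 means of 10.5 and 9.07. Of 4 red cell genes 3, 4 and 3 were above 0 (medians 0.25, 0.15 and 0.048). Of 7 genes of pancreas and fat that passed the filter 1, 3 and 2 were above 0 (medians -0.38, -0.13 and -0.24), and no muscle gene of that list passed. Acta1 of muscle and Prss1 of pancreas were at the floor on every array. Gcg of pancreas and Plin1 of fat did not pass either, at log2 means of 2.16 and 2.04, near the floor of 1.97. In that list Ins2, an insulin gene, averaged 108 ± 26.5 units in the deficient and 226 ± 106 units in the supplemented group (SD; difference -0.99 ± 0.33, SE; limma adjusted p = 0.274). Lep, the leptin gene, averaged 247 ± 77.9 and 407 ± 218 units in the same groups (difference -0.65 ± 0.29, SE; limma adjusted p = 0.373). Whether the signals of Ins2 and Lep come from their own transcripts was not tested.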
